A study of Saccharomyces cerevisiae with 16 samples.

Results

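The promoters of the cytoplasmic ribosomal protein genes of budding yeast were examined in 16 calling card libraries. A gene was a member if its name was RPL or RPS followed by a number and either A, B or no letter. Its promoter region was the stretch between neighbouring genes that lay upstream of it, and the stretch had to be present in the tables of all 16 libraries. By that rule 126 genes, 74 of the large subunit (RPL) and 52 of the small subunit (RPS), had a promoter in 122 regions, out of 4383 regions shared by the tables. Of the 122 regions, 55 held 1 ribosomal protein promoter and no other, 4 held 2 ribosomal protein promoters, and 63 also held the promoter of another gene. In 42 regions there was neither another promoter nor another annotated gene between the flanking genes.

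Ribosomal protein genes encode the protein part of the ribosome, and most are present in budding yeast as a pair of near-identical copies named A and B. They are among the most heavily transcribed genes of growing cells and are switched together by nutrients and stress. Most of their promoters are bound by Rap1, with Fhl1 and its coactivator Ifh1, and Sfp1 acts there as a growth-dependent activator. The high mobility group protein Hmo1 sits on a subset of these promoters and on ribosomal DNA. The 12 factors profiled here are zinc cluster proteins, a fungal family best known for regulating genes of carbon, nitrogen, amino acid and drug metabolism.

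In a calling card assay a transcription factor is fused to Sir4, which draws the Ty5 retrotransposon, so that Ty5 inserts near the places where the factor sits. The fusion was expressed from the ADH1 promoter on a plasmid, and Ty5 from an inducible GAL1/10 promoter on a second plasmid. The 12 factor libraries carried Gal4, Leu3, Yrm1, Yrr1, Tea1, Lys14, Cat8, Cha4, Put3, Urc2, Hal9 or Aro80. Each came from a strain labelled BY4741 that lacked SIR4 and the chromosomal gene of its own factor. The other 4 libraries carried Gal4 in sir4Δ gal4Δ strains that also lacked HMO1 (written hmoD in the genotype label), LEU3, SEF1 or YRM1. These were labelled BY4742, BY4743, BY4744 and BY4745 in that order, so strain label and deletion cannot be told apart. There was 1 library per group and therefore no replicate error for any value. Intervals below cover counting error only, and a test between libraries compares those libraries, not the conditions.

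Libraries held 6932 (hmo1Δ) to 36063 (Leu3) insertions. A fold is the share of a library's insertions in a region over the share of the authors' background insertions there, with an exact 95% interval. The Gal4 table used a background of 103922 insertions and the other 15 tables one of 84109, and 1 of the 122 regions differed in length by more than 20 bases between them. At the divergent GAL10/GAL1 promoter, the best known target of Gal4, the fold was 125 in Gal4, 167 in hmo1Δ, 114 in sef1Δ and 158 in yrm1Δ. In the library labelled leu3Δ it was 0.582 (0.0138 to 3.79), from 1 insertion, so that library lacked the enrichment seen in the other Gal4 libraries.

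Ribosomal protein promoters as a group received fewer insertions than the background predicted. The pooled fold over the 122 regions was under 1 in 15 of 16 libraries, and its upper bound was under 1 in 14. It was 0.391 (0.352 to 0.433) in Gal4, 0.498 (0.45 to 0.55) in Yrm1 and 0.596 (0.546 to 0.651) in Leu3, and it was 0.9 (0.823 to 0.982) in Cat8. The 3138 other promoter regions stood at 1.08 in Gal4, 1.19 in Yrm1, 1.19 in Leu3 and 1.25 in Cat8. In 15 libraries the interval of the ribosomal protein regions lay wholly below that of the other promoter regions. The gap was narrower once called regions were left out, at 0.268 against 0.282 in Gal4 and 0.458 against 0.602 in Leu3. In hmo1Δ the order was then reversed, as given below. Low folds were not particular to these genes. In Gal4 the pooled fold was 0.264 for translation factor, 0.181 for mitochondrial ribosome and 0.138 for stalk protein regions, and in Leu3 it was 0.376 for ribosome biogenesis and 0.487 for mitochondrial ribosome regions. Yrr1 was the exception among the 16 libraries, with a pooled fold of 1.81 (1.7 to 1.93), and 76.6% of its insertions in these regions fell in the single region between IME1 and RPL43B. Without that region the Yrr1 fold was 0.434 (0.387 to 0.485).

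The low share was also seen away from neighbouring promoters. In the 42 regions with no other promoter and no gene between, the pooled fold ranged from 0.107 (0.0427 to 0.222) in sef1Δ to 0.836 (0.583 to 1.17) in leu3Δ. It was 0.161 (0.108 to 0.233) in Gal4, 0.239 (0.162 to 0.344) in Yrr1 and 0.686 (0.531 to 0.878) in Put3. The 1667 other regions of that layout stood at 1.1 in Gal4, 0.773 in Yrr1 and 1.29 in Put3. Background insertions numbered 15.5 per kilobase in the 42 regions and 19.4 in the 1667, whereas over all regions they numbered 18.9 in the 122 and 17.1 in the 3138. Every insertion gained at a strong target is taken from the share left for other regions, so medians were compared as well. Among regions with at least 10 background insertions, 88 of ribosomal protein genes and 1352 others, the median fold of the ribosomal protein regions was lower in 12 of 12 factor libraries. The medians were 0.147 against 0.182 in Gal4, 0.255 against 0.495 in Tea1 and 0.666 against 0.885 in Put3. In hmo1Δ, sef1Δ and yrm1Δ both medians were 0. With called regions left out, the pooled fold of the ribosomal protein regions was lower in 12 of 12 factor libraries. It was 0.649 against 0.701 in Aro80 and 0.459 against 0.7 in Hal9. In hmo1Δ it was 0.461 for ribosomal protein and 0.283 for other promoter regions, the reverse of the order with called regions kept.

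**Figure D1:**
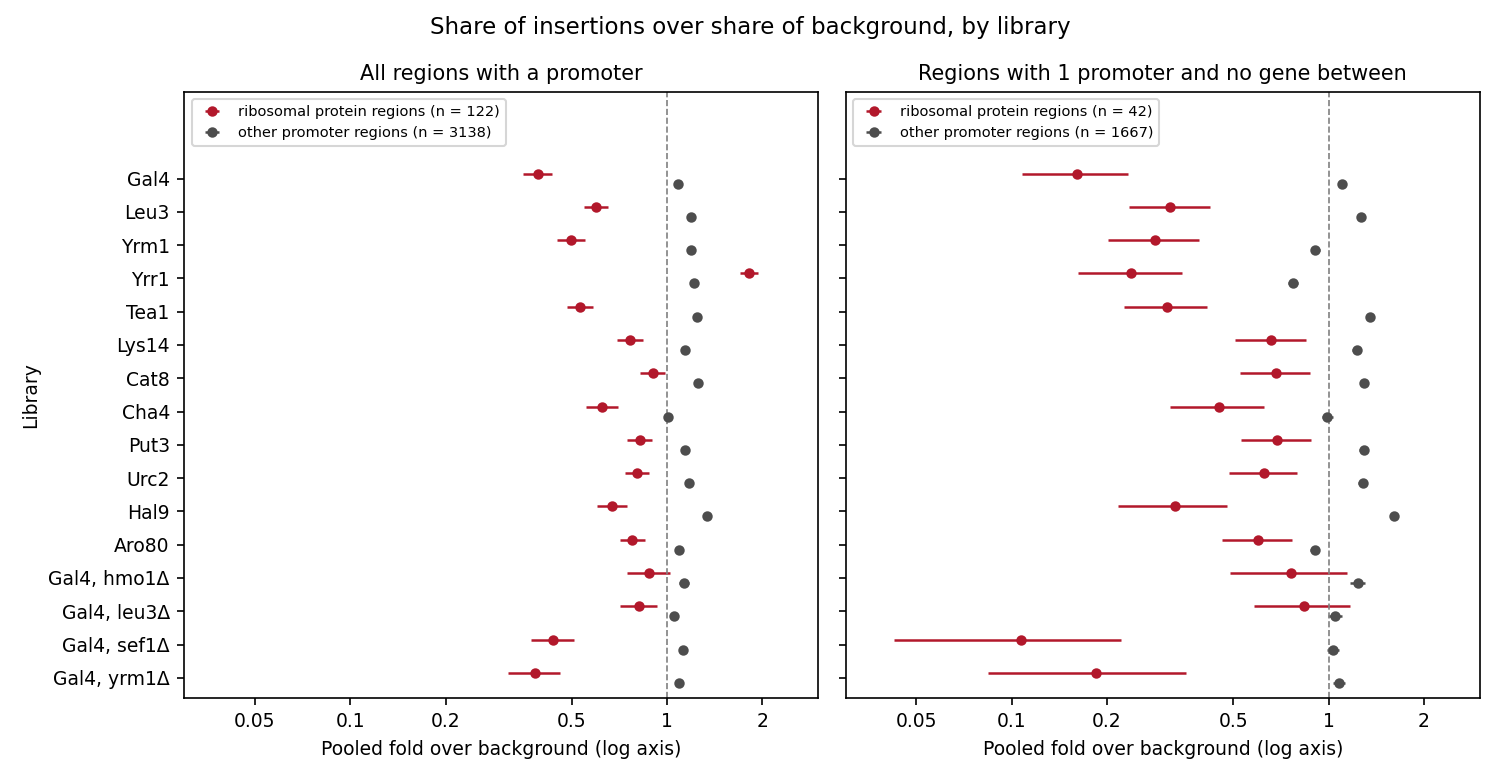
Pooled fold over background (log axis) in each of the 16 libraries for ribosomal protein regions (red) and other promoter regions (grey), with exact 95% counting intervals. On the left are all 122 and 3138 regions, where Yrr1 alone puts the ribosomal protein regions above 1; on the right are the 42 and 1667 regions with 1 promoter and no gene between, where every red point is below 1.

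Differences between the subunits rested in part on single regions. In Gal4 the small subunit regions had a pooled fold of 0.592 and the large subunit regions 0.236. Of the 278 small subunit insertions 142 lay at RHO5/RPS3, and without it the fold was 0.315 (0.262 to 0.376). The large subunit regions without their own top region, RPL9A/TIP20, stood at 0.21 (0.174 to 0.251). In Yrr1 the order was turned, with 0.39 for the small and 2.84 for the large subunit, the latter carried by the RPL43B region. In hmo1Δ the small subunit regions were at 1.23 (0.999 to 1.49) and the large subunit regions at 0.595. Without SPT6/RPS23A, which held 31 of the 110 insertions, the small subunit value was 0.89 (0.699 to 1.12). The large subunit value without its top region, MLP2/RPL40A, was 0.524 (0.4 to 0.676). In Gal4 and in hmo1Δ the intervals of the subunits thus stayed apart without the top regions.

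A region was called in a library when the authors' deposited hypergeometric p was 0.001 or less and it held at least 5 insertions. Of all 4383 regions, 1.78% were called in Gal4, 2.37% in Leu3, 2.4% in Yrm1, 1.83% in Yrr1, 2.4% in Tea1 and 0.981% in Lys14. Of the 122 ribosomal protein regions 1 was called in Gal4, 1 in Leu3, 2 in Yrm1, 2 in Yrr1, 1 in Tea1 and 2 in Lys14. The background was 1.41% in Cat8, 0.57% in Cha4, 0.593% in Put3, 1.05% in Urc2, 2.12% in Hal9 and 1.46% in Aro80. There the ribosomal protein calls numbered 2, 0, 1, 0, 3 and 2. In the deletion strains 1.28% of all regions were called in hmo1Δ, 0.16% in leu3Δ, 1.98% in sef1Δ and 1.53% in yrm1Δ, and 5, 0, 3 and 2 ribosomal protein regions. Of 122 regions, 1 call is 0.82%, 2 are 1.64%, 3 are 2.46% and 5 are 4.1%, so the hmo1Δ share was above its background. Over all libraries, 27 of 1952 region and library pairs were called, or 1.38%. That share was near the 1.49% of all regions and below the 1.95% of the other promoter regions.

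The 27 calls fell in 17 regions, and 5 regions were called in more than 1 library. Another gene's promoter lay in 11 of the 17, and another gene lay between the flanks in 3 more. The assay cannot tell which of the genes on either side an insertion belongs to. Only the regions of RPL16A, RPL17A and RPS24B were called with neither.

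**Figure D2:**
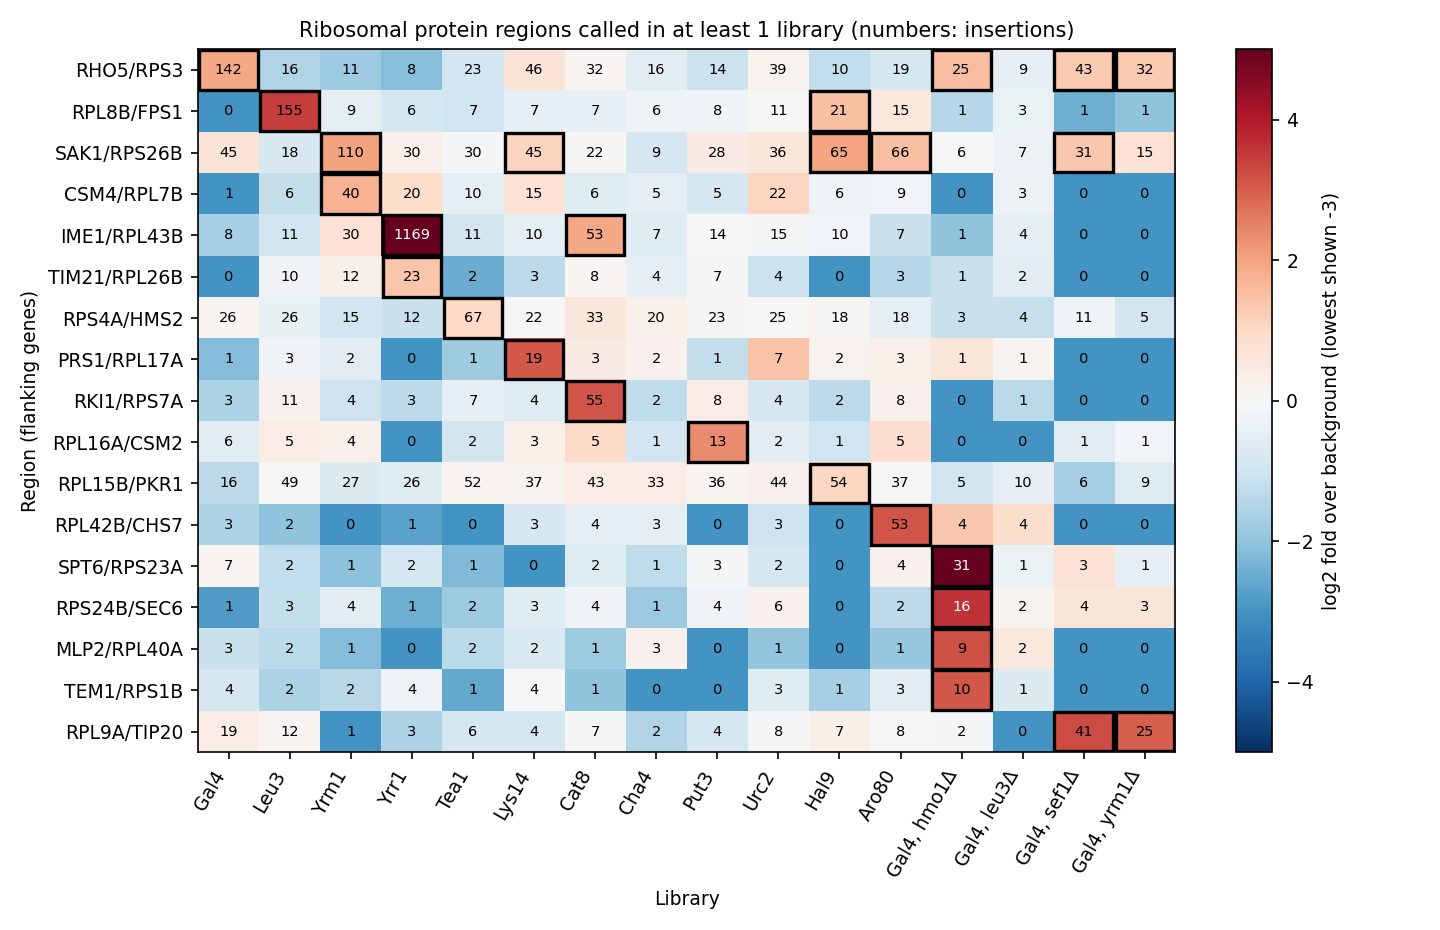
The 17 ribosomal protein regions called in at least 1 library (rows) in the 16 libraries (columns), coloured by log2 fold over background, with the number of insertions in each cell and black frames on called cells. Most rows have 1 framed cell; SAK1/RPS26B has 5 and RHO5/RPS3 has 4.

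RPS3 encodes a small subunit protein at the messenger RNA entry site, and its promoter shares a region with RHO5, which encodes a small GTPase (chromosome XIV, 300649 to 302680). This region held 142 insertions in Gal4, a fold of 3.78 (2.94 to 4.87). It held 25 in hmo1Δ, 43 in sef1Δ and 32 in yrm1Δ, with folds of 2.89, 2.48 and 2.49, and it was called in all 4. With 9 insertions it was not called in leu3Δ, and the 11 other factor libraries held 8 to 46 and made no call. Lys14 and Urc2 held 46 and 39 insertions without a call, so none of the deletion libraries exceeded Lys14 in number. In hmo1Δ, sef1Δ and yrm1Δ it was the share of a shallower library that was called.

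The long region between SAK1, which encodes a kinase of Snf1, and RPS26B also contains the gene COM2 (chromosome V, 420709 to 423952). It was called in 5 libraries. It held 110 insertions in Yrm1, a fold of 3.99 (2.94 to 5.43), and 65 in Hal9, a fold of 3.94 (2.78 to 5.58). Aro80 followed with 66 (2.87-fold), sef1Δ with 31 (2.54-fold) and Lys14 with 45 (2.15-fold). The intervals of Yrm1 and Hal9 overlap almost wholly, so those libraries are not ordered here.

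The largest value at any of these regions was between IME1, the master regulator of meiosis, and RPL43B, with the noncoding RNA gene IRT1 between them (chromosome X, 605651 to 608305). Yrr1 placed 1169 insertions there, 70.9-fold over background (53.2 to 96.3). Cat8 placed 53, a fold of 3.8 (2.53 to 5.72), and was also called. The other 14 libraries held 0 to 30 insertions and made no call.

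Leu3 had its call at the region shared by RPL8B and FPS1, the glycerol channel gene (chromosome XII, 48629 to 49938). It held 155 insertions, 11-fold over background (7.48 to 16.5). Hal9 was also called there with 21 insertions and a fold of 2.86 (1.57 to 5.08). All other libraries held 15 insertions or fewer, and Gal4 held 0.

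Several calls belonged to 1 library. Cat8 placed 55 insertions between RKI1, a pentose phosphate pathway gene, and RPS7A (8.78-fold, 5.27 to 15.1; chromosome XV, 504328 to 505794), where other libraries held 0 to 11. Aro80 placed 53 between RPL42B and CHS7 (8.96-fold, 5.22 to 16; chromosome VIII, 382751 to 383538), where others held 0 to 4. These regions each hold 2 promoters. Lys14 placed 19 at the RPL17A promoter beside PRS1 (8.4-fold, 3.51 to 22.2; chromosome XI, 108599 to 109269), and others held 0 to 7. Put3 placed 13 at the RPL16A promoter beside CSM2 (5.11-fold, 2.02 to 13.5; chromosome IX, 99416 to 100501), and others held 0 to 6. In both of these the ribosomal protein promoter was the only one.

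The other factor calls were weaker. Yrm1 held 40 insertions between CSM4 and RPL7B (3.35-fold; chromosome XVI, 171954 to 173152). Yrr1 held 23 between TIM21 and RPL26B (2.63-fold; chromosome VII, 554967 to 555812). Tea1 held 67 between RPS4A and HMS2 (2.02-fold; chromosome X, 703068 to 704196), and Hal9 held 54 between RPL15B and PKR1 (2.09-fold; chromosome XIII, 510348 to 513593). RPL15B/PKR1, with 116 background insertions, and RPS4A/HMS2, with 78, are among the regions richest in background, and the former held 16 to 54 insertions in all 12 factor libraries.

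Regions rich in background were not called for that reason alone. The region of RPL18B and TRF5 had 69 background insertions and held 3 in Gal4 and 9 to 26 in the 11 other factor libraries, with no call. RPL31B, whose region with UTP21 had 62 background insertions, held 3 in Gal4 and 8 to 29 in the others. RPS20, in a region with the urea transporter gene DUR3 and 48 background insertions, held 2 to 17 over the 12 factor libraries. RPL38, with 50 background insertions, held 1 in Gal4 and 2 to 18 in the others. At RPL18B, RPL31B and RPL38 the Gal4 library was the lowest of the 12. At the other end, 15 of the 122 regions held 0 insertions in Aro80, 38 in leu3Δ, 51 in Gal4, 78 in hmo1Δ, 89 in sef1Δ and 96 in yrm1Δ. The 4 deletion libraries are the shallowest, but these counts did not follow depth among them. The leu3Δ library, with 9628 insertions, had fewer empty regions than sef1Δ with 13882 and yrm1Δ with 10280.

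The Gal4 libraries were then compared directly by a two-sided Fisher's exact test per region, over regions with at least 10 insertions in the 2 libraries together and with Benjamini-Hochberg adjustment over all of them at 0.05. Against Gal4, the hmo1Δ library had 4 higher and 0 lower among the 10 ribosomal protein regions tested (6.79% higher and 1.36% lower of all 221 tested). An unadjusted p under 0.05 gave the same 4 and 0. The 4 were the promoters of RPS23A, RPS24B, RPS1B and RPL40A. Each of the 4 held fewer than 10 insertions in Gal4 and reached the minimum through hmo1Δ. Over all 122 regions, 39 had a larger share in hmo1Δ than in Gal4, 44 a smaller one, and 39 held 0 in both.

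Rps23 lies at the decoding centre of the ribosome. The region between SPT6 and RPS23A, which also contains YGR117C (chromosome VII, 724764 to 726974), held 31 insertions in hmo1Δ, 7 in Gal4, 3 in sef1Δ, 1 in yrm1Δ and 1 in leu3Δ. Its share in hmo1Δ was 21.5 times that in Gal4 (9.29 to 57.8; Fisher's exact test, adjusted p 4.04e-16). The hmo1Δ library stood alone, since the other 11 factor libraries held 0 to 4.

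RPS24B, with the 3′ end of the exocyst gene SEC6 on its far side, had the only promoter in its region (chromosome IX, 232369 to 233057). It held 16 insertions in hmo1Δ, 1 in Gal4, 4 in sef1Δ, 3 in yrm1Δ and 2 in leu3Δ. The ratio of hmo1Δ to Gal4 was 77.7, with a wide interval of 12.1 to 3260 because of the single Gal4 insertion (Fisher's exact test, adjusted p 4.09e-10). Again hmo1Δ was the one high library.

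RPS1B encodes a small subunit protein, and its promoter shares a region with TEM1, a GTPase gene of mitotic exit (chromosome XIII, 145876 to 146482). It held 10 insertions in hmo1Δ, 4 in Gal4, 0 in sef1Δ, 0 in yrm1Δ and 1 in leu3Δ, a ratio to Gal4 of 12.1 (3.5 to 53; Fisher's exact test, adjusted p 2.97e-04). RPL40A encodes a large subunit protein made as a fusion to ubiquitin, and shares a region with MLP2, a nuclear pore basket gene (chromosome IX, 68067 to 68708). It held 9, 3, 0, 0 and 2 insertions in the same order, a ratio of 14.6 (3.63 to 83.6; Fisher's exact test, adjusted p 4.05e-04).

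**Figure D3:**
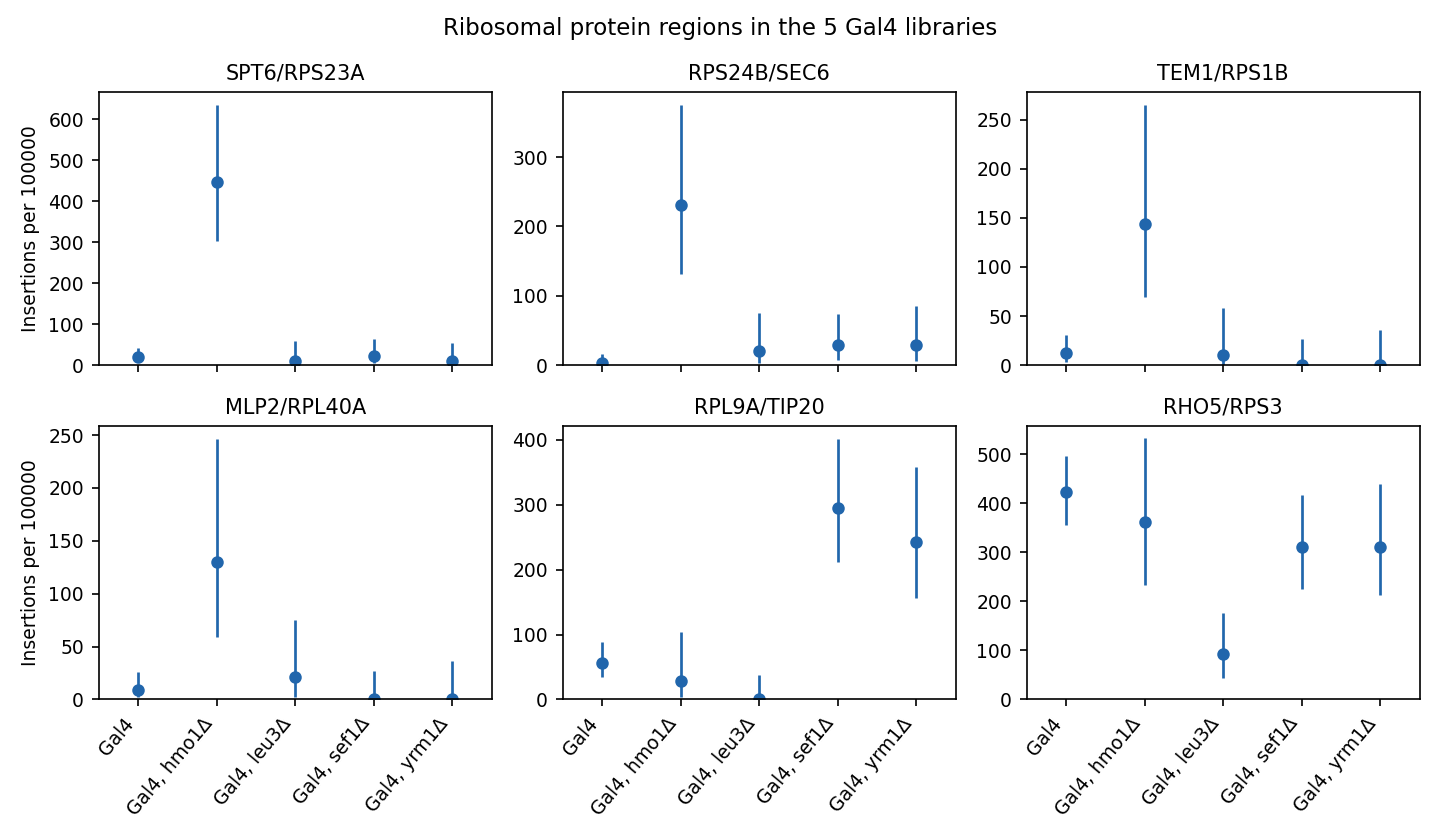
Insertions per 100000 in the 5 Gal4 libraries at 6 ribosomal protein regions, with exact 95% Poisson intervals (counting error only; vertical axes differ). RPS23A, RPS24B, RPS1B and RPL40A are high in hmo1Δ alone, RPL9A/TIP20 is high in sef1Δ and yrm1Δ, and RHO5/RPS3 is low in leu3Δ.

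Over all 122 regions the hmo1Δ library placed 180 insertions and Gal4 419, a ratio of shares of 2.09 (1.74 to 2.49), beside 1.06 for the other promoter regions. Without the 4 regions the ratio was 1.37 (1.1 to 1.69). That interval holds 1.21, the median ratio of hmo1Δ to Gal4 given below on the log2 scale, and this remainder was not scaled to it. In the 42 regions with no other promoter or gene, hmo1Δ held 25 insertions and Gal4 30, a ratio of 4.04 (2.28 to 7.11), while the 1667 other regions of that layout gave 1.15 (1.09 to 1.21). The same 42 regions gave 4.43 (2.67 to 7.4) in leu3Δ, 0.566 (0.21 to 1.31) in sef1Δ and 0.982 (0.41 to 2.12) in yrm1Δ, so the higher share against Gal4 was not found in hmo1Δ alone. Over regions with at least 10 insertions in each of the compared libraries, the median ratio to Gal4 was 0.27 on the log2 scale in hmo1Δ, 1.03 in leu3Δ, 0.36 in sef1Δ and 0.32 in yrm1Δ. Relative to that shift the pooled hmo1Δ ratio was 1.73, and the same 4 regions passed the test.

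Since the Gal4 table differs in background and region edges, hmo1Δ was also set against sef1Δ and yrm1Δ pooled, whose tables share its background and edges. Of 9 ribosomal protein regions tested, 3 were higher and 1 lower (5.0% higher and 4.5% lower of all 200). Higher were RPS23A, with 31 insertions against 4 (27-fold, 9.55 to 105; adjusted p 7.82e-15, Fisher's exact test), RPS24B, with 16 against 7 (7.97-fold; adjusted p 4.99e-05), and RPS1B, with 10 against 0. The lower bound of the exact interval at RPS1B was 7.81-fold (Fisher's exact test, adjusted p 1.01e-05), and the ratio against a floor of 3 insertions in the pooled libraries was 11.6. Each of these 3 regions held fewer than 10 insertions in the pooled libraries and reached the minimum through hmo1Δ. RPL40A, with 9 against 0, had too few insertions to be tested. The pooled ratio over the 122 regions was 2.11 (1.75 to 2.55), and 1.02 for other promoter regions. Without the 4 regions past the threshold it was 1.92 (1.52 to 2.4). Those 4 include the lower one, RPL9A/TIP20, with 2 insertions against 66 of the 297 in the pooled libraries. Leaving it out raises the ratio, and the ratio without the 3 higher regions alone was not computed.

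Further ribosomal protein promoters held insertions in hmo1Δ at low counts. Although hmo1Δ was the shallowest library, 44 of the 122 regions (36.1%) held an insertion there, against 33 (27.0%) in sef1Δ, 26 (21.3%) in yrm1Δ and 84 (68.9%) in leu3Δ. Of the other promoter regions, which are shorter (median 485 against 784.5 bases), 15.6% held one in hmo1Δ, 26.1% in sef1Δ, 20.4% in yrm1Δ and 60.2% in leu3Δ. There were 17 regions with at least 3 insertions in hmo1Δ, and 9 of these held none in sef1Δ and yrm1Δ while 1 region showed the reverse. Of the 3138 other promoter regions, 1 had at least 3 insertions in hmo1Δ and none in sef1Δ and yrm1Δ, and 110 showed the reverse. In both sets the reverse means at least 3 insertions in sef1Δ and yrm1Δ together and 0 in hmo1Δ. These libraries held 13882 and 10280 insertions against 6932 in hmo1Δ, so the reverse is easier to reach and the 2 directions are not alike. Chosen after their values were seen, those 9 included RPL6B, with 6 insertions in hmo1Δ, RPL2A and RPS26A, each with 5, and RPL19A, RPL42B and RPL37A, each with 4. In the same order of genes, leu3Δ held 3, 2, 0, 1, 4 and 4 insertions, and Gal4 held 3, 4, 0, 0, 3 and 1. At RPL42B and RPL37A leu3Δ thus held as many as hmo1Δ. Each of the 6 held fewer than 10 insertions in hmo1Δ and Gal4 together and was not tested. With the minimum lowered to 5 insertions, RPL6B and RPS26A passed the threshold (Fisher's exact test, 6 ribosomal protein regions higher of 23 tested, beside 3.32% higher of all 392). Both reached that minimum through hmo1Δ, the library whose counts chose them, so the test gives no separate support. In Gal4 they held 3 and 0 insertions.

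**Figure D4:**
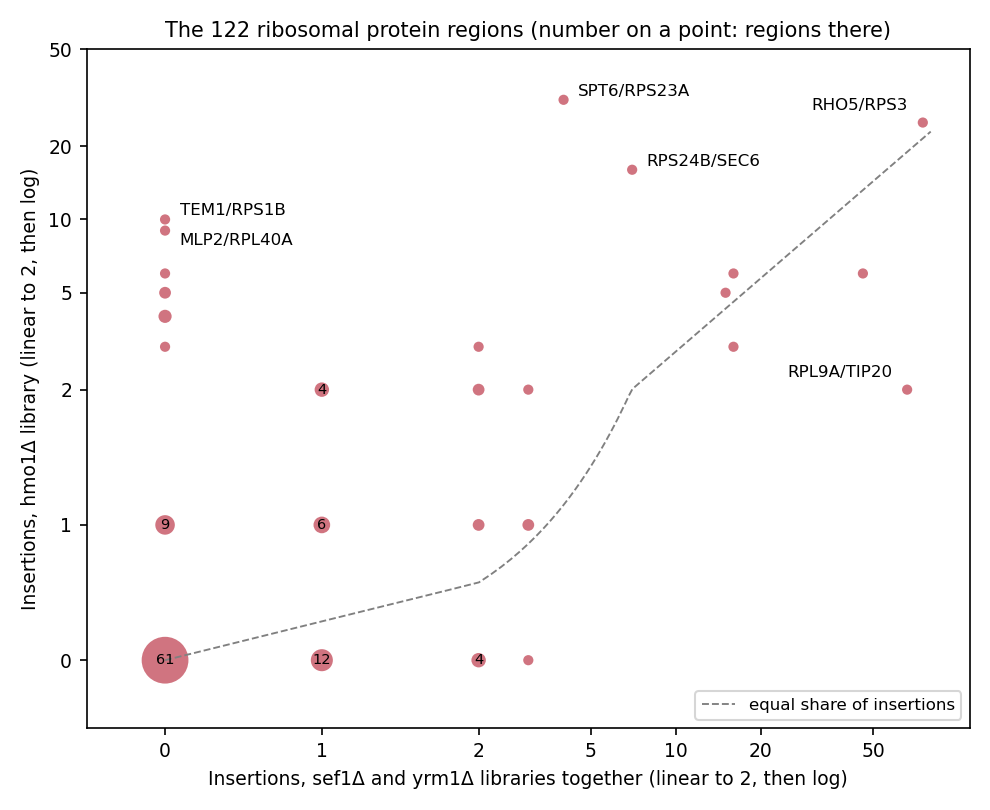
Insertions at each of the 122 ribosomal protein regions in hmo1Δ (vertical) against sef1Δ and yrm1Δ together (horizontal), both axes linear to 2 and logarithmic beyond; the dashed line marks equal shares and numbers count regions at a point. At 61 regions all 3 libraries held 0; TEM1/RPS1B and MLP2/RPL40A lie far above the line at 0 on the horizontal axis, and RPL9A/TIP20 lies below it.

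RPL9A moved in the other libraries. Its promoter lies in a region with TIP20, a vesicle transport gene, and with RRT6 between them (chromosome VII, 228329 to 230243). The region held 41 insertions in sef1Δ, 25 in yrm1Δ, 19 in Gal4, 2 in hmo1Δ and 0 in leu3Δ, and was called in the first 2 (9.55-fold and 7.87-fold over background). It was the only ribosomal protein region past the threshold in sef1Δ against Gal4 (ratio 5.23, 2.97 to 9.54; Fisher's exact test, adjusted p 1.32e-08), where 7 were tested, and in yrm1Δ (ratio 4.31, 2.28 to 8.27; adjusted p 4.40e-05), where 6 were. Of all regions tested, 11.1% were higher and 3.97% lower in sef1Δ, and 7.39% higher and 4.35% lower in yrm1Δ. The share in hmo1Δ was 0.106 of that in sef1Δ and yrm1Δ pooled (0.0125 to 0.397; Fisher's exact test, adjusted p 2.87e-04). The pooled ratio to Gal4 over the 122 regions was 1.04 (0.869 to 1.24) in sef1Δ and 0.914 (0.738 to 1.12) in yrm1Δ.

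In the library labelled leu3Δ, 5 of 13 ribosomal protein regions tested were higher than in Gal4 and 2 lower, beside 29.6% higher and 20.7% lower of all 324 tested, so these counts stood near the background. Higher were the regions of RPL26A (10 insertions against 1), RPS25B (10 against 4), RPL23A (8 against 4), RPL18B (7 against 3) and RPS27B (7 against 4). Each of the 5 held fewer than 10 insertions in Gal4 and reached the minimum through leu3Δ. After scaling to the median ratio only RPL26A and RPS25B stayed higher. Lower were RHO5/RPS3 (9 against 142; ratio 0.221, 0.0992 to 0.432; Fisher's exact test, adjusted p 6.21e-07) and RPL9A/TIP20 (0 against 19; adjusted p 0.0258). The pooled ratio was 1.94 (1.65 to 2.29), but 0.953 once the library was scaled to its median ratio. As given above, GAL10/GAL1 stood at background in this library.

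The A and B copies of a pair encode near-identical proteins. Of 52 pairs with both promoters in the set, 16 had 1 promoter called in some library, 0 had both, and 36 had neither. Since 13.9% of the 122 regions were called in any library, few pairs could have both called, and nothing is read from the 0. In hmo1Δ the counts were 31 at RPS23A and 0 at RPS23B, 16 at RPS24B and 0 at RPS24A, 10 at RPS1B and 0 at RPS1A, and 9 at RPL40A and 0 at RPL40B. In Leu3, RPL8B held 155 and RPL8A 1. In Yrr1, RPL43B held 1169 and RPL43A 1. In sef1Δ, RPL9A held 41 and RPL9B 1.

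Other genes of the translation pathway were followed in the same comparison of hmo1Δ with Gal4. Of 9 regions of regulators of ribosomal protein genes, 1 of 2 tested was higher: ARG82/HMO1, the promoter of the deleted gene itself, held 35 insertions in hmo1Δ and 9 in Gal4, a ratio of 18.9 (8.89 to 44.7; Fisher's exact test, adjusted p 1.98e-17). The regions of RAP1, FHL1 and SFP1 held 0 insertions in both libraries. Of 30 translation factor regions, 1 of 3 tested was higher, that of elongation factor gene EFT2 (6 against 4; Fisher's exact test, adjusted p 0.0384). In Gal4 alone the regions of HMO1 and EFT2 each fell short of the minimum for testing, and they reached it through hmo1Δ. Of 46 ribosome biogenesis regions the 1 tested, that of UTP22, was higher (26 against 60; Fisher's exact test, adjusted p 0.0347). Of 59 mitochondrial ribosome regions none had enough insertions to be tested, and their pooled ratio was 0.539 (0.139 to 1.5). The 5 stalk protein regions had 4 and 5 insertions and were not tested. The pooled ratio was 5.66 (3.54 to 9.1) for regulators, 2.1 (1.34 to 3.22) for ribosome biogenesis and 1.77 (0.99 to 3.05) for translation factors. ARG82/HMO1 held 35 of the 42 hmo1Δ and 9 of the 36 Gal4 insertions in regulator regions, so that ratio rested on the region of the deleted gene. NNF2/UTP22 held 26 of the 32 hmo1Δ and 60 of the 74 Gal4 insertions in ribosome biogenesis regions. Pooled ratios above 1 in hmo1Δ were thus not confined to ribosomal protein regions, but ratios without these top regions were not computed.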

How the data were processed

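Insertions of 16 calling card libraries, 1 per group, were read from tables per region between genes. Genomic DNA had been cut in 3 digests (HpaII, HinP1I, TaqαI) and recovered by inverse PCR, per the labels' protocols. Novoalign and sacCer2 are named in the submitters' processing notes. Coordinates are as the tables give them, unconverted, although 121 of 122 ribosomal protein regions have edges at gene ends of the R64 gene table. The deposited values were an insertion count and background count per region, the fraction of each, and a hypergeometric and a Poisson p-value by the authors. The hypergeometric p was recomputed to within 3.26e-08. PCR without molecular tags means that counts are not independent molecules.

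Python 3.11.15 with scipy 1.17.1, numpy 2.4.6 and pandas 2.3.3 was used, and matplotlib 3.10.9 for figures. Folds and ratios carry exact conditional binomial 95% intervals. Fisher's exact test took regions whose insertions summed to 10 or more over the compared libraries, and its p-values were adjusted by Benjamini-Hochberg over all of them (threshold 0.05). The test was checked on simulated data. Log2 ratios had 0.5 insertions added. Named regions were those called, past the threshold, with most background or most factor insertions, and their paralogues. Members and lists were chosen with earlier results of these data known. Alternatives tried were other p thresholds, minimum counts, scaling, reference libraries, thinning and restricted regions. Promoter sequences and motifs were not analysed here. Of 132 ribosomal protein genes that flank a region in any table, 126 qualified; genes between flanks come from R64.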

Additional observations from a re-analysis of the deposited data

Results flagged for a closer look

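At 4 regions the comparisons of hmo1Δ with sef1Δ and yrm1Δ pooled are listed because 1 Gal4 library in a deletion strain differed from the others by a test of that difference. The adjusted p of Fisher's exact test was 7.82e-15 at SPT6/RPS23A, 4.99e-05 at RPS24B/SEC6 and 1.01e-05 at TEM1/RPS1B, each higher in hmo1Δ. It was 2.87e-04 at RPL9A/TIP20, lower in hmo1Δ. The regions higher in hmo1Δ reached the minimum of 10 insertions only through hmo1Δ. Each of the 4 comparisons rests on 1 library per strain, and library, strain label and deletion cannot be told apart.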

How the results depend on the processing

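Calls at ribosomal protein regions numbered 35 at a p of 0.01, 24 at 0.0001 and 19 after thinning to 6932 insertions, but 10 of 27 in regions with no other promoter and 3 with no other promoter or gene. The pooled Yrr1 fold turned to 0.449 and 0.239 in those regions and to 0.434 without its top region. For hmo1Δ against Gal4, 2 were higher in regions with no other promoter, and 1 was lower with sef1Δ or with yrm1Δ as reference; 4 were higher after scaling to the median ratio. The leu3Δ count of 5 higher became 12 at a minimum of 5, 9 with none, 16 with at least 10 background insertions, 2 after scaling, 2 against sef1Δ, 2 against yrm1Δ and 1 with no other promoter; its 2 lower became 1 with no minimum, 4 after scaling and 0 with no other promoter. In sef1Δ 1 was lower after scaling; its 1 higher became 0 against yrm1Δ and 0 with no other promoter. The 1 higher in yrm1Δ became 0 against sef1Δ, with RPL9A/TIP20 at a ratio of 0.823, and 0 with no other promoter. Scaling gave pooled ratios of 1.73 (hmo1Δ), 0.953 (leu3Δ), 0.809 (sef1Δ) and 0.731 (yrm1Δ); regions with no other promoter gave 3.58 (hmo1Δ) and 2.84 (leu3Δ). The cause was not tested. Another 61 recomputed values of these comparisons kept direction and size. For single libraries and regions, 106 recomputed values did, 40 moved, 5 lost the threshold and 4 reversed. In hmo1Δ, 1 insertion is 14.4 per 100000, which limits what can be seen at single regions. No paired analysis was possible because each group has 1 library. The planned motif comparison was not run.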

Other observations

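RPL41A was outside the set because its region was not found with the same flanks in all 16 tables. Its region ended at YDL183C in the Lys14 table and at LYS20 in the Gal4 table. In Lys14 the region held 57 insertions, 11.9-fold over background. It held 1 to 11 in Leu3, Yrm1, Yrr1, Tea1, Cat8, Cha4, Put3, Urc2 and Hal9. Which gene the Lys14 insertions belong to cannot be told. RPS10A, outside the set for the same reason, held 6 insertions in hmo1Δ, 4.28-fold over background with a deposited p of 0.00633, short of a call, and 0 in sef1Δ and yrm1Δ.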
